A study of Mus musculus with 12 samples.

Results

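The genes described here were the 4 EGF receptor ligand genes Hbegf, Areg, Ereg and Tgfa, and each was represented by every probe set whose only gene symbol was its name. A probe set is the group of array probes that stands for 1 transcript. Of the 4 genes, 3 (Hbegf, Ereg and Tgfa) had such a probe set, with 1 probe set each, among 19938 genes named in this way and 35399 probe sets in all. Areg matched no probe set by name and was not analysed here.

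Messenger RNA was measured on Affymetrix Mouse Gene 1.0ST arrays in EL-4, a T lymphoma line of the mouse, to find genes that respond to a T cell stimulus and to ask whether the response needs new protein. There were 4 groups of 3 biological replicates, 12 arrays in all, and the same line was used throughout. The first group was treated with cycloheximide (CHX, an inhibitor of protein synthesis) at 10 μg/ml in DMSO for 30 min and then for 4 h with 10 ng/ml of the phorbol ester PMA and 1 μM ionomycin (P/I). The second group received DMSO in place of CHX and the same P/I stimulus. The third group received CHX and the fourth received DMSO, and both were left without P/I. How long the unstimulated cells remained in CHX after the 30 min is not given in the sources used here. PMA activates protein kinase C and ionomycin raises calcium, and together they stand in for signals downstream of the T cell receptor. All values are log2 robust multichip average (RMA) values as deposited, so that a difference of 1 is a doubling. Such a value does not by itself show whether a transcript was present, and a level is compared only with the level of the same gene in another group.

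EGF receptor ligands are made as precursors that span the cell membrane. Metalloproteases of the ADAM family cut them, and the released growth factor binds receptors of the ErbB family on the same or on neighbouring cells. Epithelial cells use these ligands in growth and wound repair, and lymphocytes and myeloid cells also make several of them. The arrays measured mRNA, and neither the proteins nor their release were measured.

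Hbegf, which encodes heparin-binding EGF-like growth factor, a ligand of the EGF receptor and of ErbB4, was higher after P/I, and its level after P/I was lower in cells treated with CHX. In CHX-treated, P/I-stimulated cells its values were 6.85, 7.40 and 7.34. In DMSO-treated, P/I-stimulated cells they were 10.80, 10.69 and 10.96. The 3 values of DMSO-treated, P/I-stimulated cells lay above all 9 values of the other groups. Unstimulated CHX-treated cells had 6.42, 6.01 and 5.91, and unstimulated DMSO-treated cells had 6.42, 5.99 and 6.04. These unstimulated groups overlapped, and in each of them the array of replicate 1 was the highest. The 3 CHX-treated, P/I-stimulated arrays lay above all 6 unstimulated arrays and below the arrays with P/I alone.

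**Figure D1:**
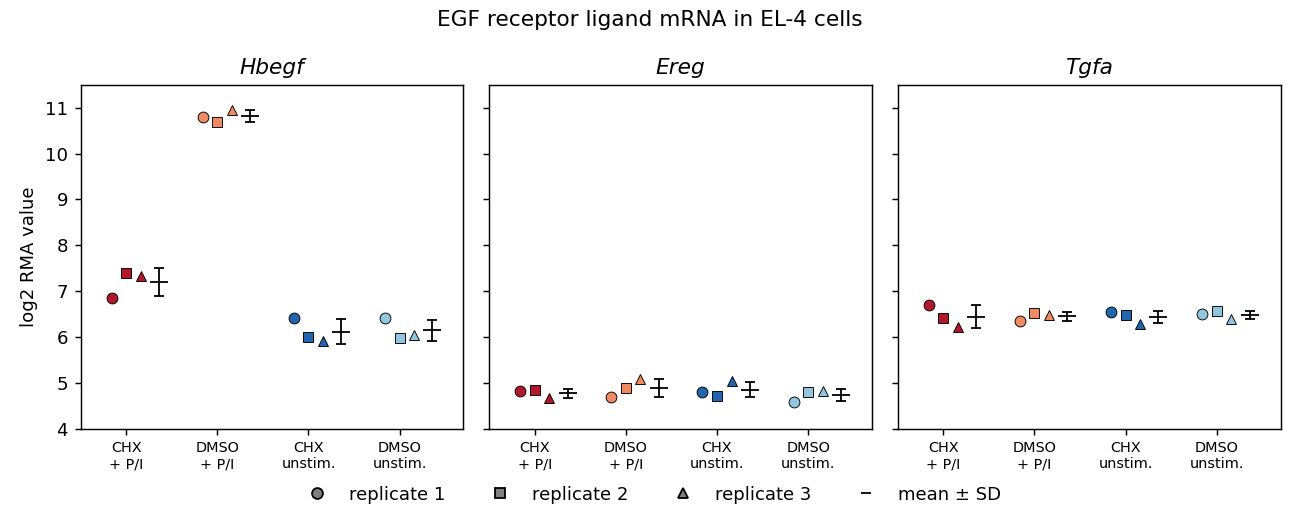
Log2 RMA values (vertical axis) of Hbegf, Ereg and Tgfa in the 4 groups (horizontal axis, unstim. for unstimulated), with a symbol for each array shaped by replicate number and the group mean ± SD (n = 3) beside them. The 3 DMSO-treated, P/I-stimulated arrays of Hbegf sit between 10.69 and 10.96, above every other array of that gene, whereas the 4 groups of Ereg and of Tgfa overlap.

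In DMSO-treated cells Hbegf averaged 10.82 ± 0.14 with P/I and 6.15 ± 0.23 without (SD, n = 3 each). The log2 fold change was 4.67 (SE 0.18, 95% confidence interval 4.29 to 5.06), which is 25.5-fold with an interval of 19.5-fold to 33.3-fold (limma, adjusted p = 1.7e-08). Hbegf was the only member of the 3 that passed the test in this comparison, at an adjusted p under 0.1, against 17.5% of the 23410 probe sets tested (9.05% higher and 8.42% lower). Because whole cultures were measured, more cells with the transcript and more transcript per cell cannot be told apart.

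In CHX-treated cells the P/I response of Hbegf was smaller but passed the test. Hbegf averaged 7.20 ± 0.30 with CHX and P/I and 6.11 ± 0.27 with CHX alone (SD, n = 3 each). The log2 fold change was 1.09 (SE 0.18, 95% confidence interval 0.70 to 1.47), or 2.12-fold (limma, adjusted p = 0.00112). Again it was the only member of the 3 to pass, against 21.8% of all probe sets tested (10.2% higher and 11.6% lower).

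Between the stimulated groups, Hbegf was 12.3-fold lower with CHX than with DMSO (interval 9.42-fold to 16.1-fold). The log2 fold change was -3.62 (95% confidence interval -4.01 to -3.24, limma adjusted p = 1.15e-07), and Hbegf stood in place 15 among the decreases of all 23410 probe sets. It was the only member of the 3 to pass the test, against 25.3% of all probe sets (13.2% higher and 12% lower). The P/I comparison in DMSO-treated cells and the CHX comparison during P/I share the 3 DMSO-treated, P/I-stimulated arrays, so their values are given side by side and are not independent of each other.

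The effect of P/I on Hbegf differed between CHX-treated and DMSO-treated cells. The difference of the 2 log2 fold changes, 1.09 in CHX-treated and 4.67 in DMSO-treated cells, was -3.59 (SE 0.25, 95% confidence interval -4.13 to -3.04, limma adjusted p = 7.04e-06). This interaction passed the test for 1 of the 3 members and for 13.7% of all probe sets (6.04% with a positive and 7.62% with a negative value). Without P/I the difference of CHX-treated from DMSO-treated cells was -0.03 on the log2 scale (95% confidence interval -0.42 to 0.35, adjusted p = 0.979). In that comparison no member passed the test, against 0.0299% of all probe sets.

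Ereg and Tgfa did not pass the test in any comparison. Ereg encodes epiregulin, a ligand of the EGF receptor and of ErbB4. Its values were 4.82, 4.84 and 4.66 in CHX-treated, P/I-stimulated cells and 4.69, 4.89 and 5.08 in DMSO-treated, P/I-stimulated cells. They were 4.79, 4.72 and 5.05 in unstimulated CHX-treated cells and 4.58, 4.79 and 4.82 in unstimulated DMSO-treated cells. All 4 groups overlapped, and the 12 arrays spanned 0.492 on the log2 scale. The P/I difference in DMSO-treated cells was 0.16 (95% confidence interval -0.11 to 0.42, limma adjusted p = 0.51), an interval whose upper end is 1.33-fold. The corresponding difference in CHX-treated cells was -0.08 (interval -0.34 to 0.18, adjusted p = 0.749). With CHX the difference was -0.12 during P/I (interval -0.38 to 0.15, adjusted p = 0.633) and 0.12 without P/I (interval -0.14 to 0.38, adjusted p = 0.872). The interaction was -0.24, with an interval of -0.61 to 0.13.

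Tgfa encodes transforming growth factor alpha, a ligand of the EGF receptor. Its values were 6.70, 6.40 and 6.22 in CHX-treated, P/I-stimulated cells and 6.35, 6.52 and 6.48 in DMSO-treated, P/I-stimulated cells. They were 6.55, 6.48 and 6.29 in unstimulated CHX-treated cells and 6.49, 6.56 and 6.39 in unstimulated DMSO-treated cells. The groups overlapped, and both the highest and the lowest of the 12 values belonged to CHX-treated, P/I-stimulated cells. In DMSO-treated cells the P/I difference was -0.03 (95% confidence interval -0.29 to 0.23, limma adjusted p = 0.922), and the upper end of that interval is 1.17-fold. In CHX-treated cells it was 0.0054 (interval -0.26 to 0.27, adjusted p = 0.986). CHX during P/I gave a difference of -0.0034 (interval -0.26 to 0.26, adjusted p = 0.992), and CHX alone gave -0.04 (interval -0.30 to 0.22, adjusted p = 0.961). The intervals of Ereg and Tgfa for P/I in DMSO-treated cells overlap each other, and the interval of Hbegf overlaps neither.

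The remaining genes of the pathway were read from lists of ligands, receptors, proteases, signalling proteins and inhibitors, 49 genes of which 44 had a probe set with 1 symbol. In DMSO-treated cells 8 of the 44 were higher and 4 lower with P/I, and their median log2 fold change was -0.03, as was the median of all probe sets. In CHX-treated cells 7 were higher and 6 lower with P/I (median 0.04, against 0.02 over all). CHX during P/I gave 8 higher and 7 lower (median 0.01, as over all), and CHX without P/I gave 0 in either direction. These 12, 13 and 15 calls of 44 stand against 17.5%, 21.8% and 25.3% of all probe sets. The interaction passed with a positive value for 7 and a negative value for 7 (median 0.08, against 0.05 over all), against 13.7% of all probe sets. The difference in shares was not tested for any comparison.

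**Figure D2:**
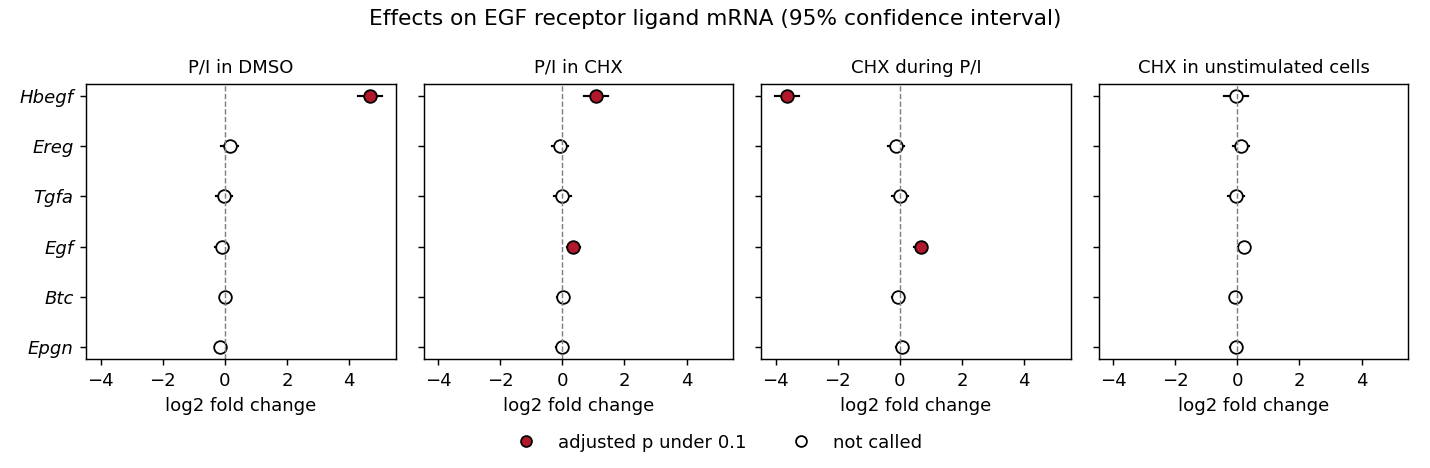
Log2 fold changes with 95% confidence intervals (horizontal axes) of the 6 measured EGF receptor ligands (rows) in 4 comparisons (panels), with filled symbols for an adjusted p under 0.1. Hbegf stands at 4.67 for P/I in DMSO-treated cells, at 1.09 for P/I in CHX-treated cells and at -3.62 for CHX during P/I. Egf is the only other ligand with a filled symbol, at 0.36 for P/I in CHX-treated cells and 0.67 for CHX during P/I.

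Of the other ligands of the EGF receptor, Egf passed the test and Btc and Epgn did not. Egf encodes epidermal growth factor. Its values were 6.27, 6.20 and 6.22 in CHX-treated, P/I-stimulated cells and 5.37, 5.58 and 5.73 in DMSO-treated, P/I-stimulated cells. In unstimulated cells they were 5.84, 5.82 and 5.94 with CHX and 5.70, 5.68 and 5.59 with DMSO. The 3 arrays with both CHX and P/I lay above the other 9. During P/I, Egf was 1.59-fold higher with CHX (log2 fold change 0.67, SE 0.09, limma adjusted p = 0.000287), which is the opposite direction to Hbegf. P/I gave 0.36 in CHX-treated cells (adjusted p = 0.0181, but 0.208 without the arrays of replicate 2) and -0.10 in DMSO-treated cells (adjusted p = 0.62). The difference of these effects, 0.46, had an adjusted p = 0.0481 and no longer passed without replicate 1 or 2 of the unstimulated CHX-treated arrays or replicate 2 of the unstimulated DMSO-treated arrays (values of 0.44, 0.43 and 0.44, adjusted p of 0.104 to 0.109). Betacellulin (Btc) ranged between 4.76 and 5.01 over the 12 arrays and epigen (Epgn) between 4.57 and 4.84. On mouse chromosome 5, Epgn, Ereg, Areg and Btc follow one another among the protein-coding genes of the RefSeq GRCm38.p6 annotation. The 3 of them that were measured passed the test in no comparison, and Hbegf, Tgfa and Egf lie on other chromosomes. Of all probe sets, between 0.0299% and 25.3% passed in a comparison, and the difference in shares was not tested.

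None of the 4 ErbB receptors passed the test in any comparison. Egfr, the receptor of all 4 ligands described first, ranged between 4.89 and 5.32 over the 12 arrays. Erbb2, which has no ligand of its own and pairs with the other receptors, ranged between 5.36 and 5.85. Erbb3 and Erbb4, the receptors of the neuregulins, ranged between 4.81 and 5.45 and between 4.85 and 5.37. The 4 neuregulins (Nrg1, Nrg2, Nrg3 and Nrg4) also passed in no comparison. Of all probe sets, 17.5% passed for P/I in DMSO-treated cells and 21.8% for P/I in CHX-treated cells. For CHX during P/I, CHX without P/I and the interaction, 25.3%, 0.0299% and 13.7% passed. With 4 genes in each list, the difference in shares was not tested.

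Of the 13 shedding proteases and cofactors, all measured, 5 were higher and 2 lower with P/I in DMSO-treated cells (median log2 fold change -0.09). In CHX-treated cells 3 were higher and 1 lower with P/I (median -0.01), and CHX during P/I gave 4 higher and 3 lower (median 0.05). Over all probe sets 17.5%, 21.8% and 25.3% were called in these comparisons, with medians of -0.03, 0.02 and 0.01. The difference in shares was not tested. Rhbdf2 encodes iRhom2, which carries the protease ADAM17 to the cell surface and steers it to its substrates. Its values were 6.93, 6.32 and 6.90 in CHX-treated, P/I-stimulated cells and 8.39, 8.64 and 8.54 in DMSO-treated, P/I-stimulated cells. They were 6.22, 6.12 and 5.96 in unstimulated CHX-treated cells and 6.14, 5.84 and 5.87 in unstimulated DMSO-treated cells. The 4 groups stood in the same arrangement as for Hbegf, with the P/I arrays without CHX above all others and the arrays with both between them and the unstimulated arrays. P/I raised Rhbdf2 5.95-fold in DMSO-treated cells (log2 fold change 2.57, SE 0.16, limma adjusted p = 8.69e-07) and 1.54-fold in CHX-treated cells (adjusted p = 0.016), of which the second lost its call without the 4 arrays of replicate 3 (0.45, adjusted p = 0.355). During P/I it was 3.50-fold lower with CHX (adjusted p = 9.19e-06), and the interaction was -1.95 (adjusted p = 0.000215). Rhbdf1 and Frmd8, of the same list, were higher with CHX during P/I, opposite to Rhbdf2 and Hbegf. Rhbdf1 averaged 6.17 with CHX and P/I, 5.48 with P/I alone, and 5.46 and 5.51 in unstimulated CHX-treated and DMSO-treated cells. Frmd8 averaged 7.26, 6.80, 7.32 and 7.28 in the same order. P/I lowered Frmd8 in DMSO-treated cells and raised Rhbdf1 in CHX-treated cells. Alternatives were not run for these genes.

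Adam8, a metalloprotease of leukocytes, had values of 7.21, 7.43 and 7.50 in CHX-treated, P/I-stimulated cells and 9.02, 8.80 and 9.31 in DMSO-treated, P/I-stimulated cells. Unstimulated cells had 7.50, 8.08 and 8.13 with CHX and 7.49, 7.83 and 8.24 with DMSO. The arrays with P/I alone were again the highest, whereas those with CHX and P/I did not lie above the unstimulated arrays. Adam8 was higher by 1.19 on the log2 scale with P/I in DMSO-treated cells (SE 0.21, limma adjusted p = 0.00211) and differed by -0.53 with P/I in CHX-treated cells (adjusted p = 0.115). CHX during P/I gave -1.67 (adjusted p = 0.000137).

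Adam17, the main sheddase of the Hbegf, Ereg, Areg and Tgfa precursors, is described for that role and was chosen after its values were seen. It had 8.76, 9.12 and 9.07 in CHX-treated, P/I-stimulated cells and 9.93, 9.34 and 9.74 in DMSO-treated, P/I-stimulated cells, which did not overlap. Unstimulated cells had 9.40, 9.22 and 9.47 with CHX and 9.36, 9.11 and 9.24 with DMSO. During P/I it was 1.61-fold lower with CHX (limma adjusted p = 0.00576), a call lost without the 4 arrays of replicate 3 (adjusted p = 0.124). Its P/I difference in DMSO-treated cells was 0.43 (adjusted p = 0.0853), between groups that overlapped. That difference lost its call in 16 of 24 alternatives, among them median centring (adjusted p = 0.126), quantile normalization (0.105), all probe sets (0.115), a variance trend (0.103), a linear model without moderation (0.161) and the fit of only these groups (0.159). It also lost it when any of 7 of the 12 arrays was left out, with values of 0.30 without replicate 1, and 0.39 without replicate 3, of the DMSO-treated, P/I-stimulated arrays, of 0.37 without replicate 2, and 0.43 without replicate 3, of the unstimulated DMSO-treated arrays, and of 0.43 without replicate 1 or 3 of the unstimulated CHX-treated or replicate 3 of the CHX-treated, P/I-stimulated arrays.

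Adam10, the main sheddase of the Egf and Btc precursors, was higher with P/I whether or not CHX was present. Its values were 11.81, 11.42 and 11.67 in CHX-treated, P/I-stimulated cells and 11.67, 10.91 and 11.42 in DMSO-treated, P/I-stimulated cells. Unstimulated cells had 9.87, 9.80 and 9.65 with CHX and 9.95, 9.83 and 9.69 with DMSO. The 6 stimulated arrays lay above the 6 unstimulated arrays, by 3.63-fold in CHX-treated cells (limma adjusted p = 2.01e-05) and by 2.84-fold in DMSO-treated cells (adjusted p = 9.56e-05). The interaction was 0.35 (adjusted p = 0.45).

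Adam12, another protease known to release HB-EGF, ran the other way to Hbegf. It had 7.20, 7.17 and 7.48 in CHX-treated, P/I-stimulated cells and 6.31, 6.18 and 6.12 in DMSO-treated, P/I-stimulated cells. Unstimulated cells had 7.55, 7.90 and 8.42 with CHX and 7.56, 7.58 and 8.25 with DMSO, so that the arrays with P/I alone were the lowest. In DMSO-treated cells the P/I difference was -1.59 (SE 0.22, limma adjusted p = 0.000404), and during P/I Adam12 was 2.11-fold higher with CHX (adjusted p = 0.00373).

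**Figure D3:**
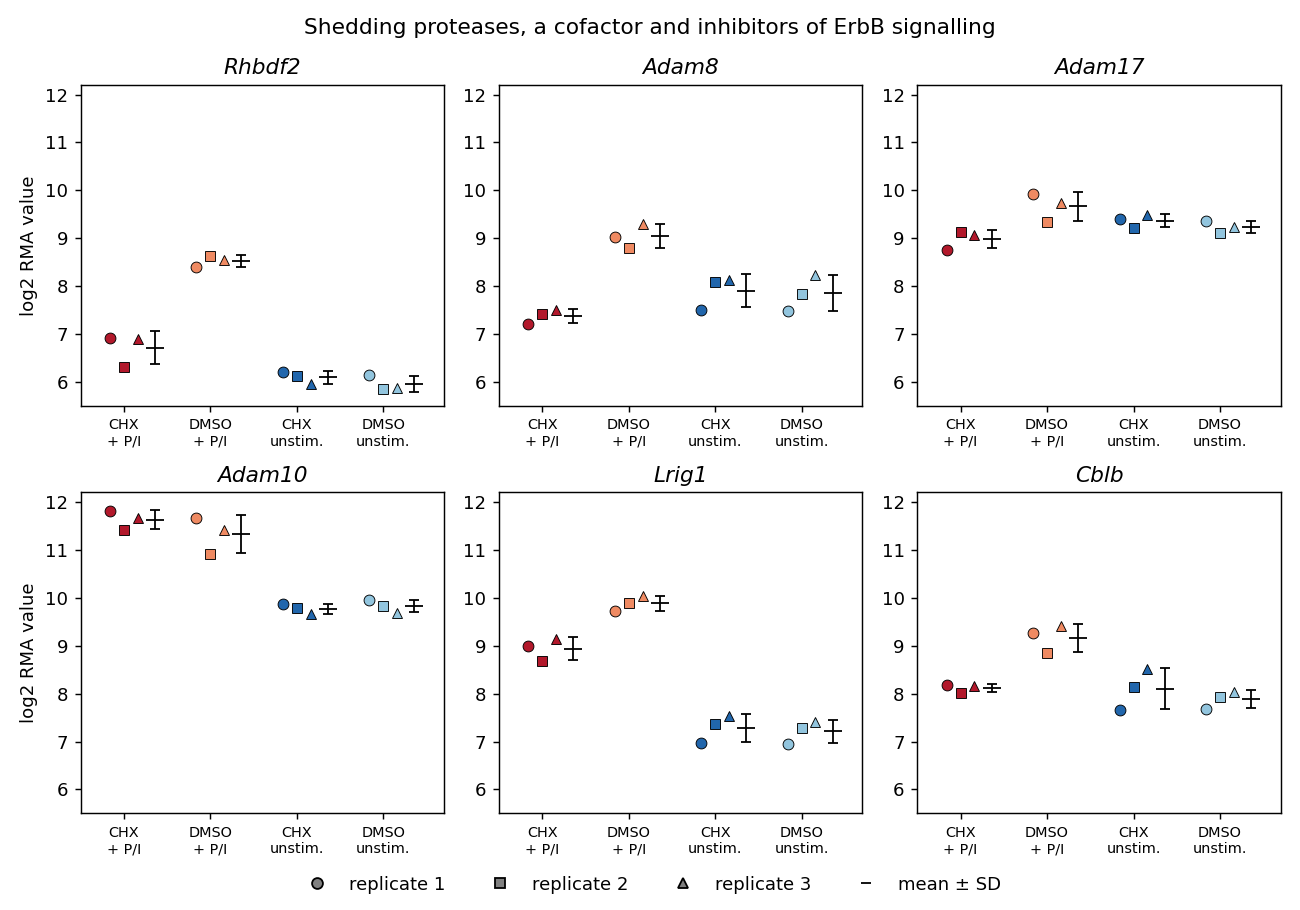
Log2 RMA values (vertical axes) of Rhbdf2, Adam8, Adam17, Adam10, Lrig1 and Cblb in the 4 groups (horizontal axes), with a symbol for each array shaped by replicate number and the group mean ± SD (n = 3) beside them. The DMSO-treated, P/I-stimulated arrays of Rhbdf2 sit between 8.39 and 8.64, above all others of that gene, whereas for Adam10 both stimulated groups sit above both unstimulated groups.

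Of the 9 inhibitors of ErbB signalling, all measured, 3 were higher and 1 lower with P/I in DMSO-treated cells (median log2 fold change 0.10). In CHX-treated cells 2 were higher and 1 lower (median 0.18), and CHX during P/I gave 1 higher and 2 lower (median 0.02). The shares called over all probe sets were 17.5%, 21.8% and 25.3% (medians -0.03, 0.02 and 0.01), and the difference in shares was not tested. Lrig1, a membrane protein that promotes the breakdown of ErbB receptors, had values of 9.00, 8.67 and 9.14 in CHX-treated, P/I-stimulated cells and 9.73, 9.90 and 10.03 in DMSO-treated, P/I-stimulated cells. Unstimulated cells had 6.96, 7.37 and 7.53 with CHX and 6.95, 7.28 and 7.41 with DMSO. The stimulated arrays lay above the unstimulated ones in both treatments, and those with CHX lay below those without. P/I raised Lrig1 by 1.65 on the log2 scale in CHX-treated cells (limma adjusted p = 5.09e-05) and by 2.67 in DMSO-treated cells (adjusted p = 1.27e-06), and the interaction was -1.03 (adjusted p = 0.0195; 0.264 and 0.15 without the arrays of replicate 2 or 3).

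Cblb, a ubiquitin ligase that restrains T cell activation and also acts on ErbB receptors, had 8.18, 8.02 and 8.16 in CHX-treated, P/I-stimulated cells and 9.26, 8.84 and 9.41 in DMSO-treated, P/I-stimulated cells. Unstimulated cells had 7.66, 8.13 and 8.52 with CHX and 7.67, 7.93 and 8.04 with DMSO. The arrays with P/I alone lay above all others. Cblb was 2.45-fold higher with P/I in DMSO-treated cells (limma adjusted p = 0.000909), and its P/I difference in CHX-treated cells was 0.01 (adjusted p = 0.982). Lrig2, a relative of Lrig1, instead showed a P/I increase when CHX was present, of 1.06 (adjusted p = 0.00374, but 0.109 without the arrays of replicate 2), and its difference in DMSO-treated cells was -0.16 (adjusted p = 0.73). During P/I, Lrig2 was 3.03-fold higher with CHX (adjusted p = 0.000184). Cbl, another ubiquitin ligase of the ErbB receptors, was the inhibitor that was lower with P/I. It had 9.55, 9.54 and 9.42 in CHX-treated, P/I-stimulated cells and 9.67, 9.39 and 9.26 in DMSO-treated, P/I-stimulated cells. Unstimulated cells had 9.77, 10.00 and 10.12 with CHX and 9.76, 9.92 and 10.01 with DMSO. The P/I difference was -0.46 in CHX-treated cells (adjusted p = 0.0211) and -0.46 in DMSO-treated cells (adjusted p = 0.025). Without the arrays of replicate 2 or 3 neither passed (adjusted p of 0.217 to 0.369), nor did the second without replicate 3 of the DMSO-treated, P/I-stimulated arrays (-0.37, adjusted p = 0.112) or of the unstimulated DMSO-treated arrays (-0.40, adjusted p = 0.105).

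Of 16 receptor adaptors and kinases between Ras and ERK, 11 were measured, of which 0 were higher and 1 lower with P/I in DMSO-treated cells (median log2 fold change 0.05). In CHX-treated cells 1 was higher and 4 lower with P/I (median -0.14), and CHX during P/I gave 2 in each direction (median -0.05). These counts stand against 17.5%, 21.8% and 25.3% of all probe sets (medians -0.03, 0.02 and 0.01), and the difference in shares was not tested. Map2k1, the ERK kinase MEK1, had 9.50, 9.62 and 9.43 in CHX-treated, P/I-stimulated cells and 9.04, 8.81 and 8.77 in DMSO-treated, P/I-stimulated cells. Unstimulated cells had 9.87, 9.96 and 10.02 with CHX and 9.74, 9.76 and 9.91 with DMSO. The arrays with P/I alone were the lowest, at a P/I difference of -0.93 in DMSO-treated cells (limma adjusted p = 3.88e-05). In CHX-treated cells the difference was -0.43 (adjusted p = 0.00699, but 0.172 without the arrays of replicate 3). Nras, a Ras GTPase, and Sos2, an exchange factor for Ras, were lower with CHX during P/I by log2 fold changes of -0.47 and -0.78, and Braf, a kinase that acts on MEK, was higher by 0.82 (adjusted p of 0.00062, 0.00114 and 0.00549, the last 0.153 without the arrays of replicate 2).

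**Figure D4:**
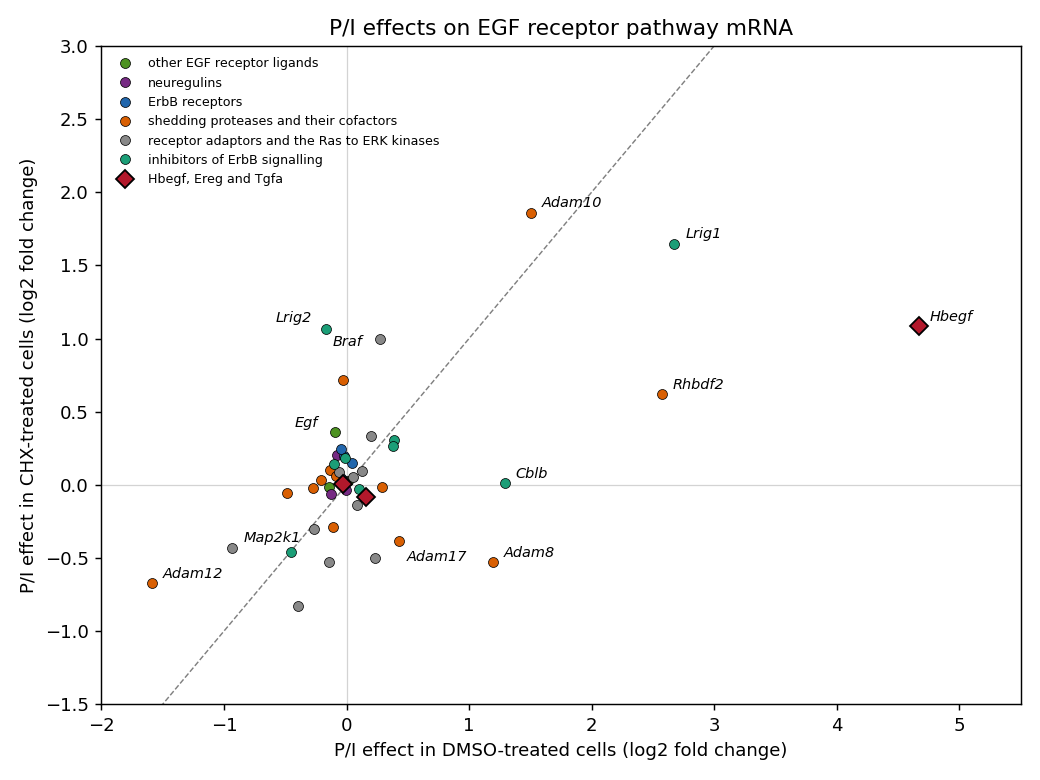
Log2 fold change with P/I in CHX-treated cells (vertical axis) against that in DMSO-treated cells (horizontal axis) for the 44 pathway genes (circles, coloured by list) and for Hbegf, Ereg and Tgfa (diamonds). The dashed line marks equal effects. Hbegf, at 4.67 in DMSO-treated and 1.09 in CHX-treated cells, lies far below the line, as Rhbdf2 and Adam8 do, while Adam10 lies close to it.

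The 250 bases before the transcription start were read from the RefSeq GRCm38.p6 promoter table for Tgfa and for 34 of the 44 pathway genes. The promoters of Hbegf, Ereg and Areg were not searched. The 3 promoters printed here belong to genes that differed in response: Tgfa passed no test, Adam8 passed for P/I in DMSO-treated but not in CHX-treated cells, and Lrig1 was higher with P/I in both treatments. They lie at chr6:86194972-86195221 on the plus strand, at chr7:139992563-139992812 on the minus strand and at chr6:94700146-94700395 on the minus strand. Capitals mark the Sp1 motif GGGCGG or its reverse complement CCGCCC.
Tgfa: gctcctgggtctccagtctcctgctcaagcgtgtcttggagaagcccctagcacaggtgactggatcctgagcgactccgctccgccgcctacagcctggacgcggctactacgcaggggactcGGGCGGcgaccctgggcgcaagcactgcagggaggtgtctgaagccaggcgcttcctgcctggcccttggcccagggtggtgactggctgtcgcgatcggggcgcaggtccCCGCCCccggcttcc
Adam8: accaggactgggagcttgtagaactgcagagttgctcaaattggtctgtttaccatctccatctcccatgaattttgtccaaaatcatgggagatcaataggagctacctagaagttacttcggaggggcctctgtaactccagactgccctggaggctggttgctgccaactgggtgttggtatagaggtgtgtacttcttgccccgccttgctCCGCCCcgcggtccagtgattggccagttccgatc
Lrig1: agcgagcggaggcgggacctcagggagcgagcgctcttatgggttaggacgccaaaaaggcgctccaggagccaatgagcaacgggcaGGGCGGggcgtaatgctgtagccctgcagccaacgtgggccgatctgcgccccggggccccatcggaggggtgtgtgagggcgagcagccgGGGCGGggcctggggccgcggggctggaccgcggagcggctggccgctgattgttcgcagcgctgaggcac

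Both strands of these windows were searched for 3 motifs of factors that act in activated T cells or at many promoters. The AP-1 motif TGANTCA was in 6.75% of all 32851 promoters, the NFAT core GGAAAA in 20.4% and the Sp1 motif in 32.7%, and these motifs do not contain one another. Tgfa and Lrig1 held 2 Sp1 matches each and Adam8 held 1, and none of the 3 windows held these AP-1 or NFAT letters. The 34 pathway genes had 41 windows, since some genes have several starts, and in at least 1 of its windows 22 genes held the Sp1 letters, 9 the NFAT letters and 2 the AP-1 letters. These are counts of genes, some with several windows, whereas the shares of all promoters count single windows. The units differ, and no comparison between them was tested. A match describes the letters of the window and does not show that a factor binds there.

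The genes whose levels followed Hbegf most closely over the 12 arrays, among 17126 genes compared, were Il1rap, a subunit of the interleukin 1 receptor (Pearson r = 0.991), and Sptlc1, a subunit of serine palmitoyltransferase (r = 0.991). They were followed by Ero1b, an oxidase of the endoplasmic reticulum (r = 0.989), Itprid2 (r = 0.982) and Tnfrsf9, a costimulatory receptor of T cells (r = 0.981). These correlations are a description without a test, over points that fall into 4 groups of which 1 stands apart. The P/I difference of the 5 genes was between 1.66 and 2.33 in DMSO-treated cells, against 4.67 for Hbegf. In CHX-treated cells it was between 0.27 and 0.62, against 1.09 for Hbegf.

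The marker genes of the labelled T cell type and of other cell types were read on the same arrays. The mean over 11 T cell markers was between 9.64 and 9.98 in every array, with members in both directions. With P/I in DMSO-treated cells 2 of the 11 were higher (Lat and Zap70) and 3 lower (Cd3e, Cd3g and Bcl11b). With P/I in CHX-treated cells 1 was higher and 3 lower, and with CHX during P/I 3 were higher and 3 lower. Of all probe sets, 17.5% passed for P/I in DMSO-treated cells, 21.8% for P/I in CHX-treated cells and 25.3% for CHX during P/I. Among 8 epithelial and 6 fibroblast markers, 0 passed the test in any comparison. The marker lists are small, and their shares were not tested against those of all probe sets. Of the 8 myeloid markers, 1 was higher and 0 lower with P/I in DMSO-treated cells, 1 rose with P/I when CHX was present (Fcgr1), and 2 were higher (Fcgr1 and Adgre1) and 1 lower with CHX during P/I. Fcgr1, an Fc receptor, had 7.49, 5.95 and 6.22 in CHX-treated, P/I-stimulated cells and 5.07, 5.40 and 5.19 in DMSO-treated, P/I-stimulated cells. Its log2 fold change with CHX during P/I was 1.33 (limma adjusted p = 0.00782), and that of Adgre1 was 0.25 (adjusted p = 0.0944). Both were opposite in sign to that of Hbegf. Cd68, a lysosomal protein of macrophages, moved in the same directions as Hbegf with P/I in DMSO-treated cells and with CHX during P/I. Its values were 6.20, 6.06 and 6.37 in CHX-treated, P/I-stimulated cells and 7.61, 7.15 and 7.42 in DMSO-treated, P/I-stimulated cells. Unstimulated cells had 6.67, 6.48 and 6.31 with CHX and 6.87, 6.53 and 6.76 with DMSO, so the arrays with P/I alone were the highest, by 0.67 over unstimulated DMSO-treated cells (limma adjusted p = 0.00623). The mean over the 8 myeloid markers was between 5.09 and 5.31 in CHX-treated, P/I-stimulated cells and between 5.09 and 5.13 in DMSO-treated, P/I-stimulated cells. In unstimulated cells it was between 4.97 and 5.01 with CHX and between 5.06 and 5.14 with DMSO, and the part of these markers in the Hbegf result was not tested. Among the 6 B cell markers measured, Cd79b and Cd22 were lower with P/I in DMSO-treated cells and none was higher. Cd79b was also lower with P/I in CHX-treated cells, higher with CHX during P/I and positive in the interaction, and no other B cell marker passed there.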

How the data were processed

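RNA from 12 EL-4 arrays was used. The authors used RMA in Partek software, with a background correction that takes account of probe sequence and with quantile normalization, and the deposited log2 values were used without further scaling. The deposited values carry no coordinates, and promoter positions are those of the RefSeq GRCm38.p6 table, a later build than the one the study's methods name. Gene names came from the platform annotation, by which 21789 probe sets had 1 symbol, 1621 several and 11989 none. Tests covered the 23410 probe sets with any symbol, and gene names come from those with a single symbol. For a gene with several, the one with the highest mean stands for it.

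A mean per group was fitted with limma 3.58.1 in R 4.3.3 over all 12 arrays. Tests were two-sided, and a probe set was called where its adjusted p (Benjamini-Hochberg, over all those tested) was under 0.1, the false discovery rate of the study's methods. The fit was tested on simulated data, with 100 probe sets changed by 1 and 100 changed by 2 on the log2 scale. It recovered 94 and 100 of them, with 26 false calls among 23410 probe sets. The simulated noise was independent between arrays and held no spread shared by replicate number, so the simulation does not cover such a spread. The number of arrays, 3 a group, limits the precision. The series' design text calls them biological replicates without saying whether they came from separate cultures, so p-values measure the spread between these samples. Arrays of 1 group correlated at 0.987 to 0.997.

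The 4 ligands and all gene lists (other ligands, neuregulins, receptors, shedding proteases, adaptors and kinases, inhibitors, and markers of T, epithelial, myeloid, B and fibroblast cells) were chosen with earlier results of these data known. Named were every member, the other ligands, the neuregulins and the receptors. At most 4 called genes of a pathway list were named by smallest p, with the 5 genes most like a called member by Pearson correlation. Adam17, Frmd8 and Rhbdf1 were named beyond that rule, after their values were seen. Alternatives were a replicate block, median centring, a repeated quantile normalization, a filter at a mean of log2 5, all 35399 probe sets, a variance trend, an ordinary ANOVA model, an adjusted p under 0.05, fits of only the 2 groups compared, and leaving out each array or each replicate number.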

Additional observations from a re-analysis of the deposited data

Results flagged for a closer look

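The interaction test of limma called 7 of the 44 pathway genes with a positive and 7 with a negative value. It called 13.7% of all probe sets. Rhbdf1 and Frmd8, both positive, are among the called genes, and their alternatives were not run. For Hbegf and the other called genes, the value is the log2 fold change with P/I in CHX-treated cells minus that in DMSO-treated cells. The value was -3.59 for Hbegf (adjusted p = 7.04e-06). Among shedding genes it was -1.95 for Rhbdf2 (adjusted p = 0.000215), -1.72 for Adam8 (adjusted p = 0.00347) and -0.81 for Adam17 (adjusted p = 0.0308). Adam12 had 0.92 (adjusted p = 0.0926), which lost its call without any 1 of 10 of the 12 arrays. Among inhibitors it was -1.28 for Cblb (adjusted p = 0.0138), -1.03 for Lrig1 (adjusted p = 0.0195) and 1.23 for Lrig2 (adjusted p = 0.0213). The ligand Egf had 0.46 (adjusted p = 0.0481). Among kinases and adaptors it was -0.74 for Sos2 (adjusted p = 0.0277), 0.50 for Map2k1 (adjusted p = 0.0325) and -0.38 for Nras (adjusted p = 0.0386). Braf had 0.73 (adjusted p = 0.0989), which lost its call without any 1 of 8 of the 12 arrays. The calls of Hbegf, Rhbdf2 and Adam8 held in every alternative. Of the genes with a value given here, the other 10 all lost their call without the 4 arrays of replicate 3 (adjusted p of 0.126 to 0.373). All but Adam17 and Sos2, 8 of them, also lost it without those of replicate 2 (0.117 to 0.56). Map2k1 also lost it after median centring (adjusted p = 0.145), and Nras after quantile normalization (0.222), with a variance trend (0.183) and, like Egf (0.196), without the arrays of replicate 1 (0.118). Adam12 and Braf lost it after median centring (adjusted p of 0.158 and 0.201) and with all probe sets (0.119 and 0.125). They also lost it in the ordinary ANOVA model (0.194 and 0.193), and Braf with a variance trend (0.109).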

How the results depend on the processing

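Of the 15 effects of Hbegf, Ereg and Tgfa, 4 were called, all of Hbegf, and these kept their direction and their call in 95 of 95 alternative values. Over the alternatives Hbegf had 4.55 to 4.82 for P/I in DMSO-treated cells, 0.91 to 1.41 for P/I in CHX-treated cells (adjusted p of 9.81e-06 to 0.0774), -3.79 to -3.45 for CHX during P/I and -3.72 to -3.40 for the interaction. The 11 effects not called passed in 0 of 257 alternative values, and some of them changed sign. Median centring of the arrays gave 0.016 for CHX without P/I on Hbegf, and for Tgfa 0.011 for P/I with DMSO, -0.050 for P/I with CHX, 0.0099 for CHX without P/I and -0.062 for the interaction, and quantile normalization gave 0.0078 for P/I with DMSO on Tgfa. With arrays left out, CHX without P/I ranged over -0.19 to 0.10 for Hbegf and -0.096 to 0.035 for Tgfa, P/I with CHX over -0.18 to 0.071 for Ereg and -0.12 to 0.12 for Tgfa, CHX during P/I over -0.24 to 0.034 for Ereg and -0.18 to 0.12 for Tgfa, P/I with DMSO over -0.090 to 0.026 for Tgfa and the interaction over -0.094 to 0.15 for Tgfa. The cause was not tested. Ereg has a mean under log2 5 and gave no value with that filter. Of the 54 calls of pathway genes, alternatives were run for 44, those of the named genes other than Frmd8 and Rhbdf1. Of these, 23 kept their call under every alternative and 21 lost it under at least 1, and none of the 44 changed sign.

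With the replicate number as a block, 6060 probe sets were called for P/I in DMSO-treated cells, 7113 for P/I in CHX-treated cells, 7607 for CHX during P/I, 119 for CHX without P/I (7 without the block) and 5202 for the interaction (3196 without it). Deviations from the group means of arrays with the same number correlated at 0.064 to 0.75, and 12 of 12 arrays correlated best with an array of their own number, a hint from the data and not from the design. The count for CHX without P/I was 3 after quantile normalization and 0 with all probe sets, the ordinary ANOVA model or only the 2 groups, and 0 to 751 with arrays left out, the highest without the 4 arrays of replicate 1. Leaving out arrays gave 1650 to 5763 calls for P/I in DMSO-treated cells, 2173 to 6621 for P/I in CHX-treated cells, 2817 to 7592 for CHX during P/I and 699 to 4666 for the interaction, the lowest of each without the 4 arrays of replicate 3. Median centring left the interaction with 862 higher and 2070 lower, against 1413 higher and 1783 lower before it.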
